A study of Rattus norvegicus with 14 samples.

Results

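The abdominal aorta of pregnant rats was compared with that of non-pregnant rats, with all pregnant animals pooled into 1 group whether they had been infused with saline or with lipopolysaccharide. The pooled group held 10 of the 14 animals of the series and the non-pregnant group the other 4, and all 19357 genes of the array were compared. Each animal was a female Wistar outbred rat with a cannula in the right jugular vein, and messenger RNA of its whole abdominal aorta was measured on 1 Affymetrix Rat Gene 1.1 ST array. The 5 rats of the experimental preeclampsia group (ExpPE) were pregnant and were given lipopolysaccharide (LPS, from the outer membrane of bacteria) into the vein on day 14 of pregnancy, 1 µg per kg dissolved in 2 ml and run in during 1 h. The 5 rats of the healthy pregnant group (Pr) received saline on the same day, and the aortas of both groups were taken on day 20. The 4 non-pregnant rats (NPr) were matched for age, received saline as well and were killed in diestrus. ExpPE is a model of preeclampsia induced by a single low dose of LPS, and no LPS-treated non-pregnant rats were on the arrays, so the pooled group differs from NPr in pregnancy throughout and in LPS for the 5 ExpPE rats. In 1 deposited table the 5 columns named ExpPE carry the titles of Pr rats in the other table, and the 5 columns named Pr carry those of ExpPE rats, while the 4 NPr titles are the same in both. The pooled comparison is the same under either set of names, and ExpPE and Pr are named here as in the annotated table, with animals numbered in its order.

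The aorta consists of smooth muscle, endothelium, adventitial fibroblasts and resident macrophages, with fat around it. Smooth muscle markers had a mean log2 intensity of 10.51 to 12.00 in pregnant and 11.27 to 12.10 in NPr rats, and none of the 6 changed. Markers of skeletal fibres, brown adipocytes and sympathetic neurons also varied between animals. The source of these signals was not tested. Skeletal fibre markers lay between 4.74 and 11.49 in pregnant and between 4.66 and 8.37 in NPr rats, highest in Pr 1, ExpPE 2 and ExpPE 1. Among NPr rats the highest value was that of NPr 3. Brown adipocyte markers lay between 6.21 and 8.20 in pregnant and between 6.46 and 8.82 in NPr rats. Sympathetic neuron and chromaffin cell markers lay between 3.87 and 8.39 in pregnant and between 3.84 and 5.41 in NPr rats. They were highest in ExpPE 1 (8.39) and ExpPE 2 (6.98). The 1188 genes of smell and taste receptors, taken as a measure of background, had a median log2 intensity of 2.66 and a 95th percentile of 3.90, against a median of 5.62 over all genes. In a bulk sample, a change in the number of cells of a type and a change in RNA per cell cannot be told apart. Nothing in the sample records says that the arrays share a litter or a processing day. Precision is limited by how many arrays there are.

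Type I interferons are small secreted proteins that act through a receptor pair, the kinases Jak1 and Tyk2 and transcription factors that include Stat2 and Irf9. These factors bind the interferon-stimulated response element in promoters and switch on a large set of genes that restrain viruses, among them the oligoadenylate synthetases, the Mx GTPases and the ubiquitin-like protein Isg15. Irf7 is induced by this route and in turn drives interferon transcription.

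Promoter sequences were looked up for the genes that changed, because the genes that rose included many interferon-stimulated ones. RefSeq (build GRCr8) gave a window from 250 bases before to 50 bases after the start for 14948 genes of the array and for 23 of the 32 genes that changed. The core letters of the response element, GAAA, any 2 bases and GAAA again, on either strand, stood in 9 of the 20 windows of genes that rose (45.0%), against 500 of all 14948 windows (3.34%). They also stood in 21 of 49 windows (42.9%) of genes from 6 lists of interferon-response genes that did not pass the test, and in 1 of the 3 windows of genes that fell, that of Col6a6. The core of the gamma activated site, TTCNNNGAA, was held by 3 of the 20, by 13 of the 49 (26.5%) and by 1174 of all windows (7.85%). Such a match describes the letters only. The windows of 5 genes that rose are shown because each holds the response element core, in capitals, at a different place. Oas1a (chr12:41330216-41330515, + strand) and Oas1b (chr12:41395803-41396102, - strand) hold 2 overlapping copies in the same letters, which begin at -41 and -35 from the start in Oas1a and at -59 and -53 in Oas1b. Irf7 (chr1:205799974-205800273, - strand) has 1 copy at -69, written as its reverse complement. Lgals3bp (chr10:104127799-104128098, - strand) has 1 copy at -50 and Ifi27 (chr6:128355062-128355361, + strand) has copies at -169 and -84.
Oas1a: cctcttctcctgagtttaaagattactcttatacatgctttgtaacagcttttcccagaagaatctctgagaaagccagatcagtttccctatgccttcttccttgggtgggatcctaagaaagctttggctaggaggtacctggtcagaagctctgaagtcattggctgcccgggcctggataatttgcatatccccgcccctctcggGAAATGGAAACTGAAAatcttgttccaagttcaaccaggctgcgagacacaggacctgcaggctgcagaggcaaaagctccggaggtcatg
Oas1b: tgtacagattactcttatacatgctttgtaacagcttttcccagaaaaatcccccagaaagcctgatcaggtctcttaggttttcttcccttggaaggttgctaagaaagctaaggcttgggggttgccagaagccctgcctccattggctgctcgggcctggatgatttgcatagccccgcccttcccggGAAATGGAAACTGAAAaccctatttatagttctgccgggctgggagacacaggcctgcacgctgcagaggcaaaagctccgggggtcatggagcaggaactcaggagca
Irf7: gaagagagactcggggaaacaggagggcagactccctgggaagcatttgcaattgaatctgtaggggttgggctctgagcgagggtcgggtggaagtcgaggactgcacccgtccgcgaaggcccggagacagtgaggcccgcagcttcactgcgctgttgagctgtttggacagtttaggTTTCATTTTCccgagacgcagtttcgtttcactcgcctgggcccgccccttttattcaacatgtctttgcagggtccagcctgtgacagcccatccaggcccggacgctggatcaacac
Lgals3bp: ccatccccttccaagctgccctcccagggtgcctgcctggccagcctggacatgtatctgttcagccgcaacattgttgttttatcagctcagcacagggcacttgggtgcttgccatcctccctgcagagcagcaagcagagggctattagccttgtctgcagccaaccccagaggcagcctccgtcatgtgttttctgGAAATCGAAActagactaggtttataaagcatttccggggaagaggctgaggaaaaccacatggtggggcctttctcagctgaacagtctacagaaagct
Ifi27: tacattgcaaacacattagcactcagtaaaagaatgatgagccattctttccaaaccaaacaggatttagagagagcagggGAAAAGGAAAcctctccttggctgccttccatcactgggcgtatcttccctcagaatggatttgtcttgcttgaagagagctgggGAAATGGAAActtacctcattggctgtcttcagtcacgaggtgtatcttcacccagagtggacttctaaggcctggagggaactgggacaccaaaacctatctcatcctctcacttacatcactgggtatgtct

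In pregnant aortas 29 genes rose and 3 fell relative to NPr aortas, at an adjusted p under 0.05 (limma, Benjamini-Hochberg over 19357 genes), which is 0.15% of all genes higher and 0.0155% lower. Of the 29 genes that rose, 18 belong to 6 lists of interferon-response genes, and the others include Cxcl13, a chemokine that attracts B cells, Mmp3, a matrix metalloproteinase, and Masp1 and C2 of the complement system. The differences of the genes that rose lay between 0.89 and 3.23 on the log2 scale, with a median of 1.49. In 28 of the 29 every pregnant animal lay above every NPr animal, which held for 87 of all genes (0.449%), and in the 3 genes that fell every pregnant animal lay below, which held for 22 (0.114%). The genes were chosen by their p in these same arrays, so these counts describe them and support nothing further. The exception was Ddx60, where ExpPE 4 (5.11) lay below the highest NPr animal. The threshold of the study asks for a fold change over 1.4 and a p under 0.05 before adjustment, and 504 genes (2.6%) met it, 313 (1.62%) higher and 191 (0.987%) lower in pregnant aortas. With each array centred on its own median the higher share of these calls was 52.0%, against 62.1% as deposited. An unadjusted p under 0.05 alone was met by 1030 genes (5.32%), and 5% of all genes is 967.85.

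**Figure D1:**
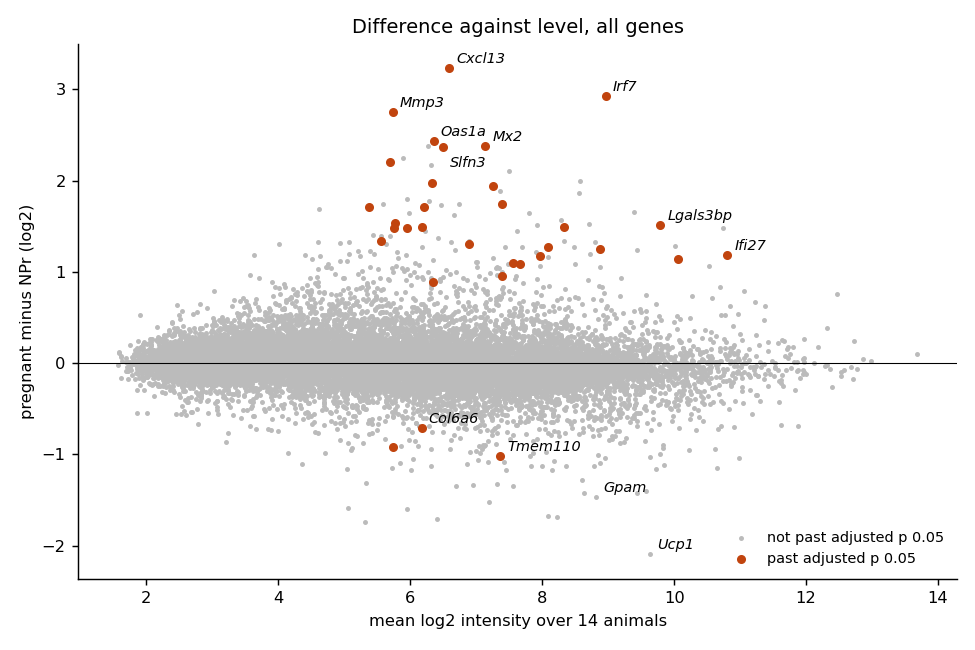
Each point is 1 gene, with its mean log2 intensity over the 14 animals on the horizontal axis and the difference, pregnant minus NPr, on the vertical axis. Orange points are the 29 genes that rose and the 3 that fell at an adjusted p under 0.05. Ucp1 and Gpam are labelled although they did not pass.

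Oligoadenylate synthetases make short oligoadenylates that activate RNase L, and 5 of the 11 measured members of this list rose, against 0.15% of all genes. Oas1a lay between 6.62 and 7.56 (median 7.05) in the 10 pregnant rats, against 4.94, 4.23, 4.46 and 4.85 in the 4 NPr rats, as log2 intensities. All pregnant animals were more than a log2 unit above all NPr animals, and the difference was 2.43 (SE 0.20, 5.39-fold, adjusted p = 1.86e-05). Oas1b lay between 5.15 and 6.82 (median 6.37) in pregnant rats, against 4.33, 3.62, 3.93 and 4.59 in NPr rats. ExpPE 2 held its lowest pregnant value, and the groups did not overlap (difference 2.20, SE 0.26, adjusted p = 0.000619). Oas2 rose by 1.71 (SE 0.18, adjusted p = 0.000318), Oasl by 1.34 (SE 0.13, adjusted p = 9.61e-05) and Oasl2 by 1.30 (SE 0.23, adjusted p = 0.0359). The call of Oasl2 was lost without any 1 of 8 animals (adjusted p up to 0.231). Oas1e, Oas1f and Oas1h, paralogs of the same cluster, differed by -0.08, -0.01 and -0.15. Oas3 differed by 0.58 (adjusted p = 0.41). Probes of near-identical copies can share signal, so the split between Oas1a and Oas1b, and between other close paralogs named here, is uncertain.

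Ifi27l2b, an interferon-inducible gene of the Ifi27 family, had the smallest p of all genes. It lay between 6.65 and 7.24 (median 6.77) in pregnant rats, against 4.96, 4.55, 5.25 and 4.91 in NPr rats. The spread within each group was small beside the gap, and the mean was 6.89 ± 0.25 in pregnant and 4.92 ± 0.29 in NPr rats (SD, n = 10 and 4), a difference of 1.98 (SE 0.15, 3.94-fold, adjusted p = 1.47e-05). Its relative Ifi27 was among the most strongly expressed of the genes that rose, with 10.87 to 11.44 (median 11.07) in pregnant rats, against 9.67, 9.80, 10.49 and 9.87 in NPr rats (difference 1.19, SE 0.16, adjusted p = 0.00216). Lgals3bp, a secreted glycoprotein that binds galectins, rose by 1.51 (SE 0.20, adjusted p = 0.00188), Rtp4, a receptor chaperone, by 1.48 (SE 0.22, adjusted p = 0.00603) and Slfn3, a Schlafen family gene that RefSeq lists as Slfn4 under the same Entrez number, by 2.37 (SE 0.38, adjusted p = 0.0106). Slfn3 did not pass without NPr 1, NPr 2 or NPr 3 (adjusted p up to 0.073). These are the 5 of 32 measured effectors that changed, against 0.165% of all genes. With arrays weighted by their residual spread 14 of the 32 changed, as did 153 of all 19357 genes. All 32 had a difference above 0 (median 0.65), against 50.7% of all genes (median 0.00). The study threshold was met upwards by 18, against 1.62% of all genes. Among the effectors that did not pass the test were Rsad2, with a difference of 1.04 (SE 0.65), and Ifit1, with 0.66 (SE 0.96). Rsad2 alone spanned 6.11 to 9.31 in pregnant and 4.85 to 8.08 in NPr rats.

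The Mx proteins are GTPases that block viral replication, and both measured Mx genes rose. Mx2 lay between 7.30 and 8.99 (median 7.82) in pregnant rats, against 5.11, 5.20, 5.70 and 5.73 in NPr rats. Pr 3 stood above the other pregnant rats, and the difference was 2.38 (SE 0.25, 5.21-fold, adjusted p = 0.000318). Mx1 rose by 1.71 (SE 0.31, adjusted p = 0.0379), a call that was lost without any 1 of 9 of the animals (adjusted p up to 0.235). The other 7 of the 9 GTPases of the list are guanylate-binding proteins and immunity-related GTPases, typical targets of interferon gamma. None of the 7 passed the test, and their differences lay between 0.52 (Irgm) and 0.96 (Irgm2). The mean of the 9 GTPases was 9.11 in Pr 3 and 6.43 to 6.96 in the other pregnant rats, against 5.87 to 6.21 in NPr rats. The highest pregnant value of Irgm2 was 10.23, with a pregnant median of 7.64 and an NPr mean of 6.91. These pooled differences therefore include 1 animal far above the rest.

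Isg15 is a ubiquitin-like protein joined to other proteins by an enzyme chain that includes Uba7, Ube2l6 and Herc6. Isg15 lay between 6.85 and 8.51 (median 7.84) in pregnant rats, against 5.70, 5.79, 5.85 and 6.15 in NPr rats. The groups did not overlap, and the difference was 1.94 (SE 0.25, 3.84-fold, adjusted p = 0.0018). Ube2l6 rose by 0.89 (SE 0.14, adjusted p = 0.0106), but not without NPr 1 (adjusted p = 0.0655). Herc6 (difference 1.04, adjusted p = 0.125), the deconjugating protease Usp18 (1.04, adjusted p = 0.33) and Uba7 (0.74, adjusted p = 0.18) did not pass. All 10 pregnant values of Herc6 lay above the NPr values, and it passed without Pr 3 (0.91, adjusted p = 0.00917).

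Among transcription factors and sensors of the pathway, Irf7 had the largest difference. It lay between 8.83 and 11.02 (median 9.87) in pregnant rats, against 6.93, 6.92, 6.93 and 6.71 in NPr rats. Pregnant values spread widely, all above the narrow band of NPr values, and the difference was 2.93 (SE 0.35, 7.61-fold, adjusted p = 0.000619). Irf9, the DNA-binding part of the interferon-activated complex, rose by 1.08 (SE 0.16, adjusted p = 0.00622). Its partner Stat2 did not pass (0.68, adjusted p = 0.316). Dhx58, an RNA helicase that regulates the sensing of viral RNA, lay between 5.89 and 6.76 (median 6.16) in pregnant rats, against 4.30, 4.49, 4.75 and 5.17 in NPr rats (difference 1.53, SE 0.18, adjusted p = 0.000616). Ddx60, a related helicase, rose by 1.48 (SE 0.28, adjusted p = 0.0452), a call lost without any 1 of 11 animals (adjusted p up to 0.278). Ddx58, which encodes the sensor RIG-I, had 7.17 to 7.97 (median 7.47) in pregnant rats, against 6.61, 6.91, 6.85 and 6.88 in NPr rats. Its groups did not overlap, and its difference of 0.68 (SE 0.13) missed the threshold (adjusted p = 0.0558), which it passed without ExpPE 1 (adjusted p = 0.0212) or Pr 3 (adjusted p = 0.0361).

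The genes of the interferons themselves lay near background. The 6 measured ligands, Ifnb1, Ifng, Ifna4, Ifna5, Ifne and Ifnk, differed by between -0.11 and 0.07, and their mean log2 intensity per animal was 3.11 to 3.55 in pregnant and 3.18 to 3.68 in NPr rats, below the 3.90 of the sensory receptors' 95th percentile. None of the 10 measured receptors, kinases and inhibitors changed (median difference 0.05). Of the 78 measured genes in the 6 interferon-response lists, which cover transcription factors, sensors, oligoadenylate synthetases, effectors, GTPases and Isg15 conjugation, 18 rose and 0 fell. Over all genes 0.15% rose and 0.0155% fell. A difference above 0 was found for 72 of the 78, against 50.7% of all genes, and the median was 0.66. With 1 animal left out, the number of the 78 that rose lay between 13 (without NPr 1) and 22 (without ExpPE 1). It was 35 with array weights, 19 with only Pr and 9 with only ExpPE animals as the pregnant group. Over all genes, 115 rose with array weights, 33 with only Pr and 14 with only ExpPE animals. The array weight of NPr 2 was 3.502, against 0.543, 1.065 and 0.962 for NPr 1, NPr 3 and NPr 4.

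**Figure D2:**
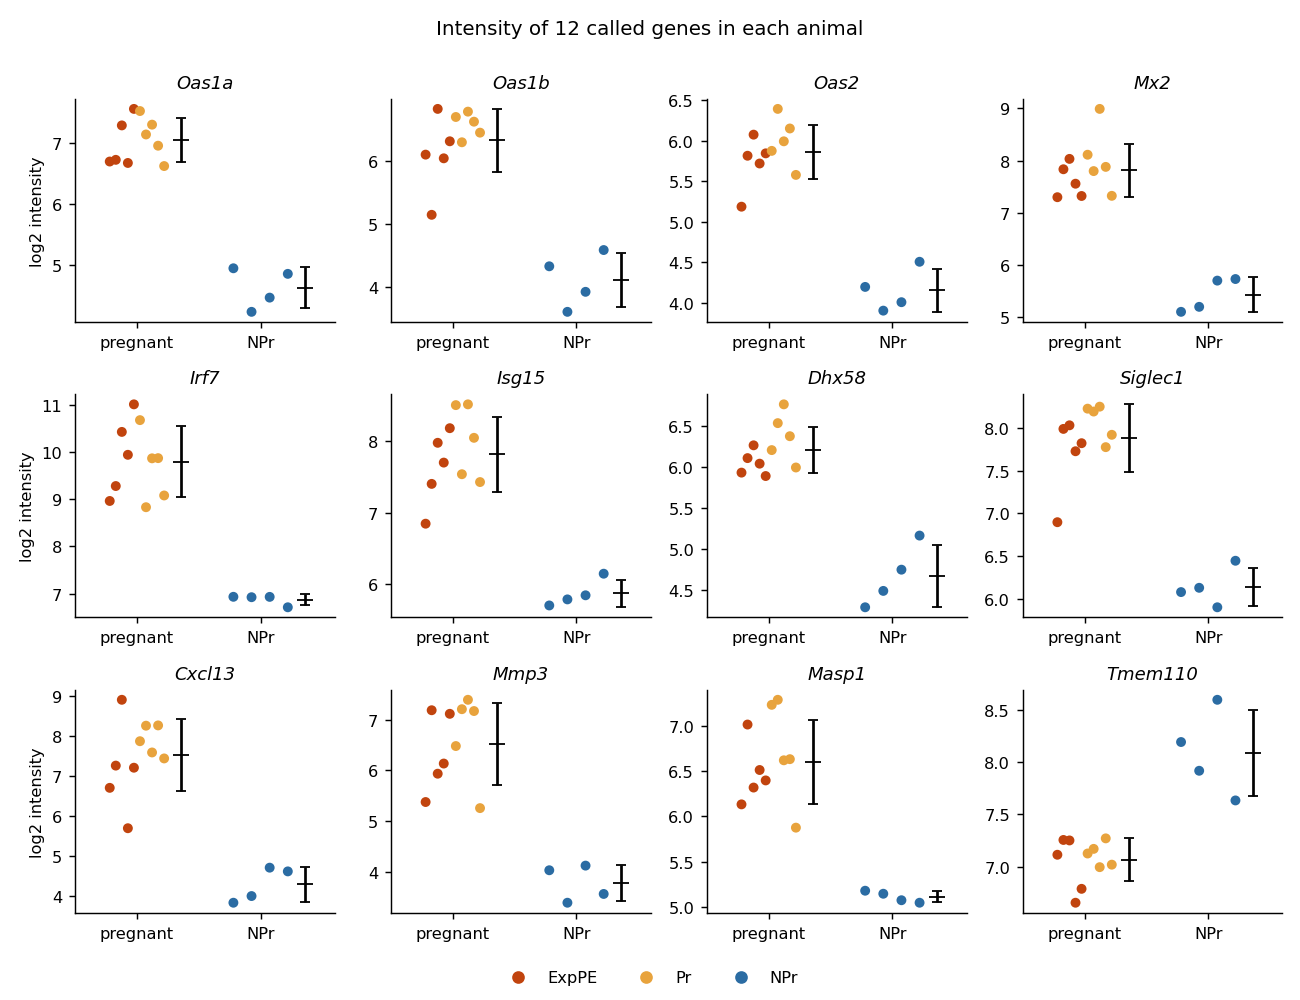
Each panel shows the log2 intensity of 1 gene in each animal, with pregnant rats on the left (ExpPE in dark orange, Pr in light orange) and NPr rats on the right (blue). The bar gives the mean and SD of each group (n = 10 and 4), and in all 12 genes the groups do not overlap. The 12 were picked among the genes that changed.

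The 29 genes that rose were chosen by their p in these same animals, so their levels per animal and per group are a description only. The median over the 29 genes of the value above the NPr mean was lowest in ExpPE 1 (1.02) and highest in Pr 3 (2.09). Each pregnant animal had at least 28 of the 29 above the highest NPr value. Both pregnant groups had all 29 above the NPr mean, by 0.80 to 3.06 in ExpPE and by 0.90 to 3.60 in Pr rats. The mean was higher in Pr than in ExpPE rats in 26 of the 29, but no called gene passed a test of ExpPE against Pr (smallest adjusted p = 0.574, limma, 3 group means). Both comparisons share the 4 NPr animals. In that fit 19 of the 32 genes passed in ExpPE and 29 in Pr rats against NPr, and this does not show that the groups differ. The exchange of titles would exchange these values between ExpPE and Pr.

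**Figure D3:**
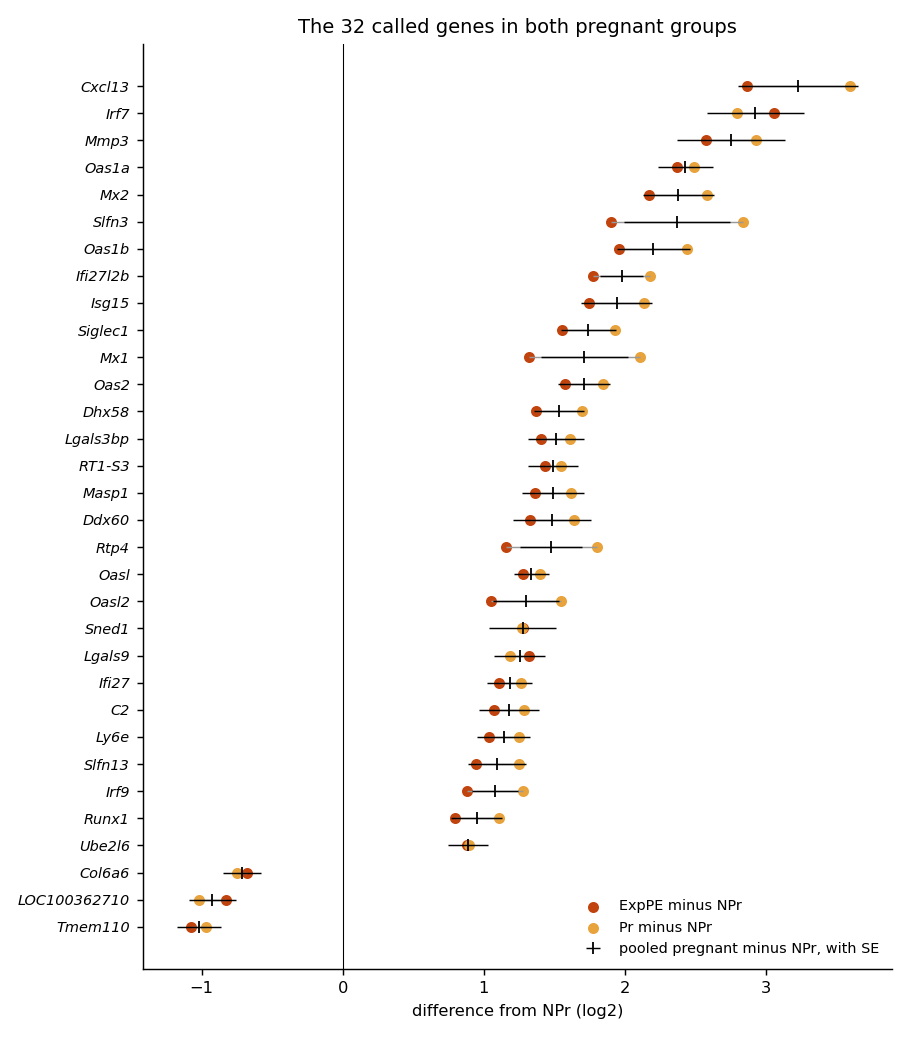
Rows are the 32 genes that changed, and the horizontal axis is the log2 difference from the NPr mean. Dark orange points are ExpPE, light orange points Pr, and black bars the pooled difference with its SE. All points of the 29 genes that rose lie above 0, from 0.80 upwards, and those of the 3 that fell lie below. The genes were chosen by their p in these same arrays.

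Outside the interferon-response lists, the largest difference of any called gene was that of Cxcl13, the chemokine that guides B cells into follicles. It lay between 5.69 and 8.90 (median 7.51) in pregnant rats, against 3.83, 3.99, 4.70 and 4.61 in NPr rats. The lowest pregnant animal, ExpPE 4, was still above the highest NPr animal, and the difference was 3.23 (SE 0.43, 9.39-fold, adjusted p = 0.00191). NPr 1 (3.83) lay below the 3.90 used as background and NPr 2 (3.99) just above it, so the fold is uncertain. B cell markers had a mean of 3.86 to 6.05 in pregnant and 4.05 to 4.60 in NPr rats, and Pr 5 (6.05) stood above the other pregnant rats. None of the 7 B cell markers changed. Cxcl13 was the single chemokine or receptor of the 33 measured that changed. Over all genes 0.165% changed. The interferon-gamma targets Cxcl9 and Cxcl10 differed by 1.10 and 0.98 with standard errors of 0.58 and 0.71, and overlapped between groups.

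Siglec1, a sialic acid receptor of resident macrophages, lay between 6.90 and 8.25 (median 7.95) in pregnant rats, against 6.08, 6.13, 5.90 and 6.45 in NPr rats. ExpPE 1 was lower than the other pregnant rats, and the difference was 1.74 (SE 0.20, 3.35-fold, adjusted p = 0.000573). Siglec1 is also known to respond to interferon. All 10 measured macrophage markers had a difference above 0 (median 0.45), against 50.7% of all genes. Siglec1 was the only one to pass the test, which 0.165% of all genes passed. Cd68 differed by 0.70 (adjusted p = 0.354), Cd163 by 0.84 (adjusted p = 0.527) and Csf1r by 0.27 (adjusted p = 0.951). The mean level of the markers was 8.12 to 9.63 in pregnant and 8.04 to 8.39 in NPr rats, with ExpPE 1 the only pregnant animal within the NPr range. The part of these markers in the genes that rose was not tested. Lgals9, a galectin, rose by 1.25 (SE 0.18, adjusted p = 0.00406), and RT1-S3, a non-classical MHC class I gene, rose by 1.49 (SE 0.18, adjusted p = 0.000619). RT1-S3 lay between 8.21 and 9.54 (median 8.69) in pregnant rats, against 7.07, 7.19, 7.42 and 7.40 in NPr rats. It was the 1 of 26 measured antigen presentation genes that changed, against 0.165% of all genes. A difference above 0 was found for 25 of the 26 (median 0.43), against 50.7% of all genes. The mean of the list was 8.16 in Pr 3 and 7.02 to 7.47 in the other pregnant rats, against 6.86 to 7.01 in NPr rats. The antigen presentation gene Tap1 did not pass (0.77, adjusted p = 0.731) but did without Pr 3 (0.59, adjusted p = 0.0339). Ly6e, a membrane-anchored protein induced by interferon, rose by 1.14 (SE 0.19, adjusted p = 0.0174), a call lost without any single NPr rat (adjusted p up to 0.12).

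The complement system marks particles for uptake and is started by antibody, by sugars or spontaneously. Masp1, a protease of the lectin route, lay between 5.87 and 7.28 (median 6.56) in pregnant rats, against 5.18, 5.14, 5.07 and 5.05 in NPr rats. All pregnant values were above the nearly equal NPr values, and the difference was 1.49 (SE 0.22, 2.81-fold, adjusted p = 0.00577). C2, which the classical and lectin routes share, rose by 1.18 (SE 0.21, adjusted p = 0.0359), but not without any 1 of 7 animals (adjusted p up to 0.19). C6, a part of the membrane attack complex, had 7.49 to 8.95 (median 8.28) in pregnant rats, against 7.12, 7.29, 6.96 and 6.79 in NPr rats. Its difference of 1.22 (SE 0.24) missed the threshold (adjusted p = 0.0558). Cfb, of the alternative route, differed by 1.53 (adjusted p = 0.0661) and C3, the central component, by 2.11 (adjusted p = 0.154). The lowest pregnant values of Cfb (8.34) and C3 (7.20) were near those of NPr 4 (8.32 and 7.37). Of the 26 measured complement genes 2 rose and 0 fell, and the median difference was 0.52. The study threshold was met upwards by 12. Over all genes 0.15% rose and 1.62% met that threshold upwards. Without NPr 4, 3 genes of the list rose, Masp1, Cfb (1.76, adjusted p = 0.0348) and C3 (2.57, adjusted p = 0.0477). Without ExpPE 1, 4 rose, Masp1, C2, C6 (1.30, adjusted p = 0.0119) and Cfb (adjusted p = 0.0302). Without Pr 5 the number was also 4. Without any 1 of 6 others (NPr 1, NPr 2, NPr 3, ExpPE 3, Pr 1 or Pr 2) it was 1. With array weights it was 7, and 115 of all genes rose.

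Mmp3 degrades proteoglycans and several collagens and can activate other metalloproteinases. It lay between 5.25 and 7.39 (median 6.80) in pregnant rats, against 4.03, 3.38, 4.12 and 3.56 in NPr rats. The NPr mean of 3.77 was lower than 3.90, the level used as background, which puts the gene near background there. The difference of the measured log2 intensities was 2.75 (SE 0.38, adjusted p = 0.0031), and no fold is given against a level this low. No other gene of the 27 measured matrix proteases and inhibitors changed, among them Mmp2 (0.63, adjusted p = 0.562) and Adam12 (0.62, adjusted p = 0.353). Over all genes 0.165% changed. Without ExpPE 1, its lowest pregnant animal, Mmp2 passed (0.73, adjusted p = 0.0487). Further genes that rose are a matrix protein and a transcription factor. Sned1 rose by 1.28 (SE 0.24, adjusted p = 0.0452) and Runx1 by 0.95 (SE 0.18, adjusted p = 0.0479), and both calls were lost without most single animals (12 and 10 of 14, adjusted p up to 0.282 and 0.284). Slfn13, which RefSeq lists as Slfn9, rose by 1.10 (SE 0.20, adjusted p = 0.0452), a call lost without any 1 of 9 animals (adjusted p up to 0.282).

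Only 3 genes fell. Tmem110, listed by RefSeq as Stimate, encodes a protein of the endoplasmic reticulum that regulates calcium entry through Stim1. It lay between 6.65 and 7.27 (median 7.12) in pregnant rats, against 8.19, 7.92, 8.60 and 7.63 in NPr rats, and differed by -1.02 (SE 0.16, adjusted p = 0.00692). All pregnant values were below all NPr values, but the call was lost without NPr 1 (adjusted p = 0.0552). LOC100362710, which RefSeq lists as Tiam2, an activator of the GTPase Rac, lay between 4.81 and 5.81 (median 5.54) in pregnant rats, against 6.74, 6.32, 6.45 and 6.06 in NPr rats (difference -0.92, SE 0.17, adjusted p = 0.0379). Col6a6, a chain of collagen VI, lay between 5.73 and 6.28 (median 5.97) in pregnant rats, against 6.34, 6.73, 7.03 and 6.63 in NPr rats (difference -0.71, SE 0.13, adjusted p = 0.0452). The calls of LOC100362710 and Col6a6 were lost without any 1 of 9 and 10 animals (adjusted p up to 0.244 and 0.284). Collagen VI chains Col6a1 and Col6a2 differed by 0.50 and 0.45 and did not pass.

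Beyond these genes, the 8 largest negative differences at the study threshold did not pass the adjusted test. Of the 8, Ucp1, Otop1, Fabp3 and Pnpla3 are in the brown fat or fatty acid and triglyceride lists. Aspg (-1.74), Adtrp (-1.59), Ttc25 (-1.59) and Fam57b (-1.52) are in neither list, and Aspg, an asparaginase, and Ttc25 passed without NPr 4 (adjusted p = 0.00113 and 0.00809). Brown fat burns fatty acids through the uncoupling protein Ucp1, and the enzymes Acly, Fasn and Gpam build fatty acids and triglycerides. Ucp1 lay between 7.24 and 11.60 (median 8.38) in pregnant rats, against 11.87, 11.28, 12.31 and 9.06 in NPr rats (difference -2.10, SE 0.76, adjusted p = 0.737). NPr 1 to NPr 3 were close to or above the highest pregnant rat, while NPr 4 lay among the pregnant rats. Gpam lay between 7.95 and 9.32 (median 8.28) in pregnant rats, against 10.19, 10.16, 10.36 and 8.75 in NPr rats (difference -1.47, SE 0.28, adjusted p = 0.0558). NPr 4 was again the one that overlapped. Of 23 measured genes of fatty acid and triglyceride synthesis 22 had a difference below 0 and 11 met the study threshold downwards (median -0.69), against 0.987% of all genes. For the 16 brown fat genes the median was -0.80, with 6 at the study threshold. For the 22 nuclear genes of oxidative phosphorylation it was -0.51, with all 22 below 0 and 1 at the study threshold.

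Levels of the lipid genes were set beside those of adipocyte markers in each animal. NPr 4 and ExpPE 1 were the ends of the white adipocyte markers. The 6 brown adipocyte markers, all of which are also in the brown fat list, had a mean of 8.20 in ExpPE 1, the highest pregnant rat, against 8.52, 7.89, 8.82 and 6.46 in NPr 1 to NPr 4. The fatty acid and triglyceride list shares 0 genes with the markers. Its mean was 9.91 in ExpPE 1, again the highest pregnant rat, against 10.02, 9.75, 10.14 and 8.63 in the same NPr rats. Pr 1 and Pr 5 had brown adipocyte marker means of 7.82 and 7.63, and means of 9.38 and 9.47 for that list. ExpPE 2 had a lower marker mean (6.94) with a list mean of 9.33. The 7 white adipocyte markers lay between 8.39 and 10.10 in pregnant rats, with ExpPE 1 the highest of all animals, against 9.47, 9.31, 9.92 and 8.36 in NPr 1 to NPr 4, where NPr 4 was the lowest of all. The part of the adipocyte markers in these differences was not tested. Without NPr 4, 14 genes fell, among them Gpam (-1.84, adjusted p = 0.0024), Acsl5 (-1.89, adjusted p = 0.00224), Acot11 (-1.69, adjusted p = 0.0334) and Dio2 (-1.31, adjusted p = 0.00824), the enzyme that activates thyroid hormone in brown fat. Without ExpPE 1, Gpam also passed (-1.57, adjusted p = 0.0119). By a code in the array names, read here as a row although no label says so, 1 row holds both pregnant and NPr animals. It holds NPr 4, ExpPE 1 and ExpPE 2, and within it the differences of Ucp1 (1.23) and Gpam (0.22) had the opposite sign. This rests on 1 NPr animal and on ExpPE 1 (11.60 and 9.32), since ExpPE 2 (8.98 and 8.62) lay below NPr 4 (9.06 and 8.75) in both genes.

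**Figure D4:**
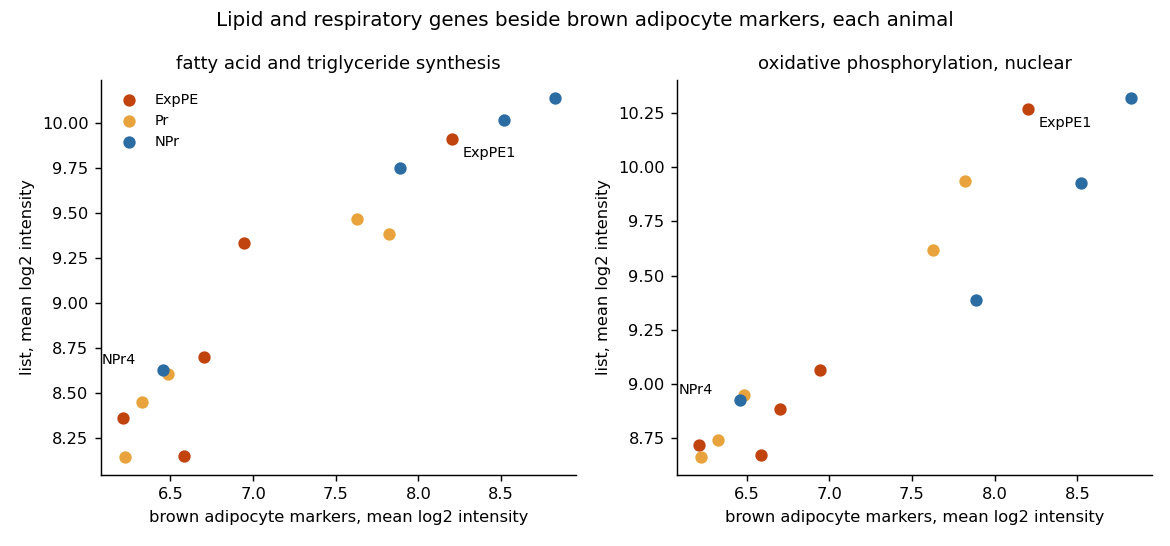
Each point is 1 animal, with the mean log2 intensity of the 6 brown adipocyte markers on the horizontal axis and that of 23 fatty acid and triglyceride genes (left) or 22 respiratory chain genes (right) on the vertical axis. ExpPE, Pr and NPr rats are coloured as labelled. NPr 4, at 6.46 on the horizontal axis, lies among the lower pregnant animals, and ExpPE 1, at 8.20, lies among the other NPr animals.

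No gene in the lists of vascular tone, pregnancy hormones or contraction passed the adjusted test, which 0.165% of all genes passed, so that counts of 0 in lists of this size say nothing particular about them. In pregnancy vessels relax, and the renin-angiotensin, endothelin, nitric oxide and prostanoid systems set their tone. Of 53 measured vasoactive ligands, enzymes and receptors 0 passed the adjusted test, and 3 met the study threshold upwards and 1 downwards (median 0.05). Over all genes the shares at the study threshold were 1.62% upwards and 0.987% downwards. Agtr1a, the main angiotensin receptor of vascular muscle, lay between 7.68 and 8.48 (median 8.04) in pregnant rats, against 7.39, 7.64, 7.70 and 7.55 in NPr rats. In 9 of the 10 pregnant rats it was above all NPr rats, but the difference of 0.49 (SE 0.12) did not pass (adjusted p = 0.218). Nos3, the endothelial nitric oxide synthase, differed by 0.01 (SE 0.15), and Edn1, endothelin, by -0.36 (SE 0.37). None of the 25 contraction genes met either threshold (median -0.12), and Acta2 differed by -0.17 (SE 0.19).

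Of the 29 genes of the pregnancy hormone axis 0 passed the adjusted test. Upwards, 1.62% of all genes met the study threshold, and so did 3 of the 29. They were Igfbp4 (difference 0.70, SE 0.18, adjusted p = 0.289, and 0.79, adjusted p = 0.0206 without ExpPE 1), Igf1 (0.63, SE 0.21, adjusted p = 0.627) and Esr1, the estrogen receptor (0.54, SE 0.21, adjusted p = 0.818). The prolactin receptor Prlr differed by -0.14 (SE 0.17) and the progesterone receptor Pgr by -0.06 (SE 0.39). Angiogenic factors (24 genes, median -0.05), collagens and elastic fibre genes (32, median 0.09), cell cycle genes (22, median 0.15) and clock genes (17, median 0.05) also held 0 called genes. The collagen list does not include Col6a6, which fell. In the acute phase list (23 genes, median 0.25) 0 passed, and the LPS-binding protein Lbp differed by 1.07 (SE 0.26, adjusted p = 0.191). With array weights the hormone, angiogenic, clock and acute phase lists held 1 called gene each, against 153 of all 19357 genes. Il6 lay between 3.43 and 6.25 (median 5.01) in pregnant rats, against 3.93, 3.58, 3.53 and 3.56 in NPr rats (difference 1.33, SE 0.49, adjusted p = 0.75). These NPr values lay near or below 3.90, the level used as background. Pcsk1, a prohormone convertase, lay between 6.57 and 9.36 (median 7.60) in pregnant rats, against 5.80, 6.38, 5.64 and 6.26 in NPr rats. Its groups did not overlap, and its difference of 1.89 (SE 0.42) did not pass (adjusted p = 0.126), but did without ExpPE 1 (2.04, adjusted p = 0.0302).

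**Figure D5:**
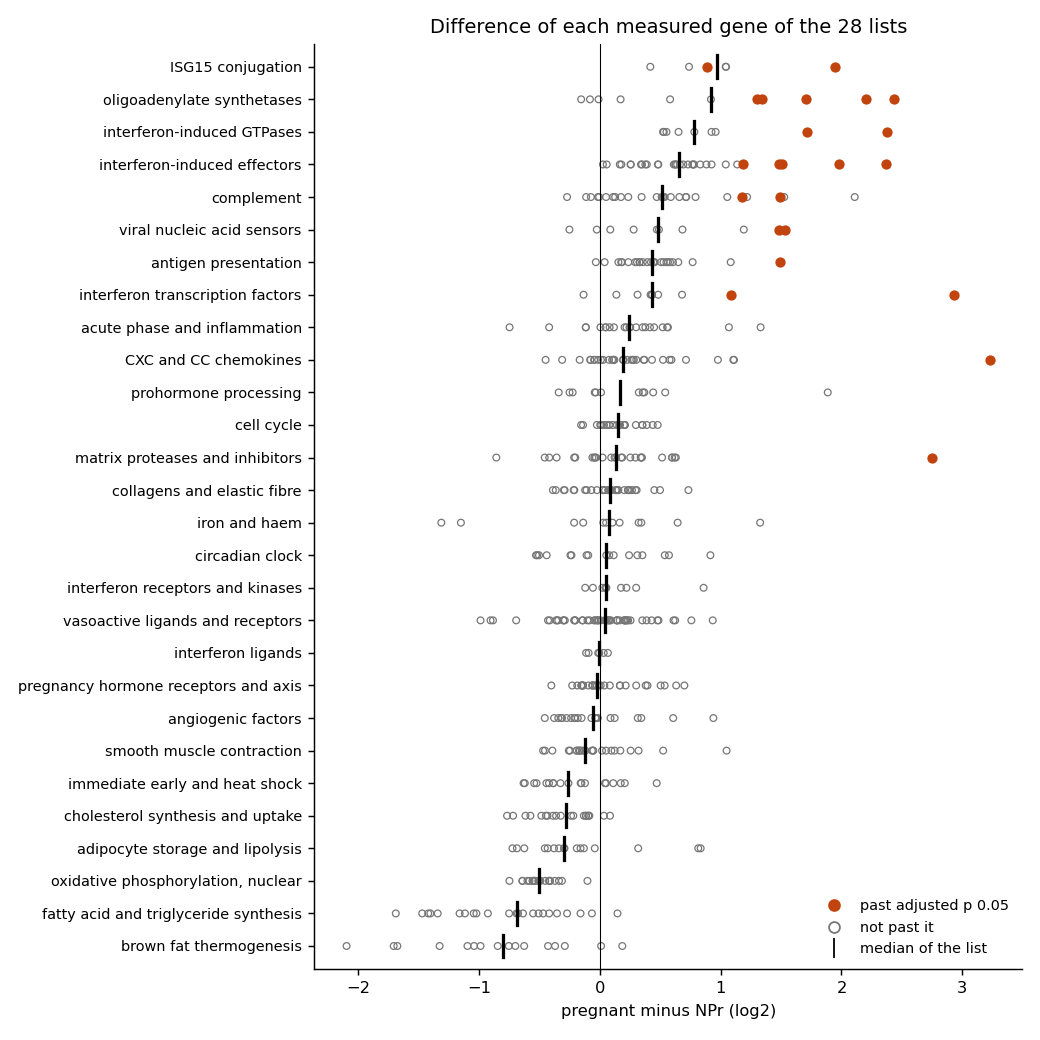
Rows are the 28 gene lists, ordered by their median, and each circle is the log2 difference, pregnant minus NPr, of 1 measured gene. Filled circles passed the adjusted p of 0.05, and black bars are the list medians. The filled circles lie in 10 lists, 6 of them the interferon-response lists, and the 3 lowest medians are those of the brown fat (-0.80), fatty acid and triglyceride (-0.69) and oxidative phosphorylation (-0.51) lists.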

How the data were processed

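The authors made the deposited values with robust multichip average (RMA, version not given), which includes quantile normalization. They used the MADMAX pipeline and regrouped the probes by gene. The deposited intensity of each gene and array is on the linear scale, and its log2 was taken, without filtering or normalizing again. The deposited columns of the authors' own comparisons (fold changes, p-values and q-values) were not used, and of the columns that hold an animal's values 0 were unused. A second deposited table held the same values (largest log2 gap 7.2e-10). Array medians lay between 5.58 and 5.67 on the log2 scale, and array pairs correlated at 0.94 to 0.992 across genes, which are not independent replicates.

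The 10 pregnant and 4 NPr arrays were fitted in limma 3.58.1 under R 4.3.3 (linear model, empirical Bayes variances with a trend on intensity), with Benjamini-Hochberg adjustment over 19357 genes. Genes are said to have risen, fallen or changed at an adjusted p under 0.05. The methods call the test paired but name no pairing variable, so none was used. Tables and figures were made in Python 3.11.15 with numpy 2.4.6, pandas 2.3.3 and matplotlib 3.10.9. Promoter windows came from RefSeq, matched by Entrez number.

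In data simulated for this comparison, with 200 of 19357 genes changed, 22% of changes of 0.5 on the log2 scale, 88% of 1 and 100% of 2 and 3 were found, 50 genes each, and 11 unchanged genes were called. The noise was normal and independent between genes and animals, with the same SD in both groups. Shifts shared by many genes of an animal were not simulated, so recovery in the real arrays can differ.

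The genes described and the 28 gene and 21 cell type lists were chosen with earlier results of these data known. The naming rule took up to 12 called genes per direction by p, the 8 genes with the largest difference per direction at the study threshold, and up to 3 members per list with an unadjusted p under 0.05. The text names further genes, picked once their values were known: the called genes Lgals9, Rtp4, Ly6e, Oasl2, Slfn13, Sned1 and Runx1, and list members or markers given for context, such as Cfb, C3, Rsad2, Cd68, Nos3 and Acta2, and Acsl5 and Dio2, called only without an animal. One entry of the contraction list was removed after the values were seen. Alternatives covered the variance prior, array weights, filters, normalization, blocks for replicate number and presumed array position, each pregnant group alone and each animal left out. The position was read from a code in the array names, and no label says that it is one.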

Additional observations from a re-analysis of the deposited data

Results flagged for a closer look

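For each of 89 named genes the highest and lowest animal of each group was set against the rest of its group, 178 groups of values in all, and in 18 of them the end animal stood apart by Dixon's criterion at the 95% level. Chance flags about 1 in 20 groups. All values are log2 intensities and no cause was tested.

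Among interferon-response genes, Pr 3 was the highest pregnant animal and stood apart in Mx2 (8.99, next 8.11), Stat2 (8.77, next 8.13), Gbp4 (6.56, next 5.27) and Herc6 (8.80, next 7.82). Low pregnant values stood apart in Siglec1 (ExpPE 1, 6.90, next 7.73), Oas1b (ExpPE 2, 5.15, next 6.04) and Ddx60 (ExpPE 4, 5.11, next 6.10). Low NPr values stood apart in Irf7 (NPr 4, 6.71, next 6.92) and Ube2l6 (NPr 1, 5.29, next 5.81).

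Among lipid genes, NPr 4 was the lowest NPr animal and stood apart in Pnpla3 (7.94, next 9.75), Gpam (8.75, next 10.16) and Me1 (9.39, next 10.83), and ExpPE 1 was the highest pregnant animal and stood apart in Elovl5 (10.30, next 9.89). These are the animals with the lowest NPr and the highest pregnant level of brown adipocyte markers (6.46 and 8.20).

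The remaining values that stood apart were low in ExpPE 1 for Mmp2 (10.64, next 11.46) and Vegfc (5.62, next 5.98) and high in ExpPE 2 for Nnat (9.39, next 8.37). High NPr values stood apart in NPr 1 for Il6 (3.93, next 3.58) and in NPr 4 for Tef (6.42, next 5.92). The Il6 values of NPr rats lay near or below the background level of 3.90.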

How the results depend on the processing

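Of 30 alternatives, Ifi27l2b, Oas1a and Oasl kept their call in each one in which they were tested, and 19 of the 32 called genes kept it without each single animal. The number of called genes was 32. It was 153 with array weights (115 higher, 38 lower, with 827 at the study threshold, 418 of them lower). With only ExpPE rats it was 14 (14 higher, 0 lower), and with only Pr rats 33 (0 lower, with 471 higher at the study threshold). Against 3 lower genes, 5 were found among genes above the median intensity and 1 with the presumed array column as a block. The number was 0 without ExpPE 1, ExpPE 2, Pr 1 and NPr 3, the animals with the highest skeletal fibre markers (an alternative chosen after seeing the data). With arrays centred, 41 genes in place of 22 had all pregnant below all NPr animals. The cause was not tested.

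With 1 animal left out, the called genes numbered 20 (without NPr 1) to 60 (without ExpPE 1), 19 to 56 higher and 1 to 14 lower (14 without NPr 4). Those at the study threshold numbered 404 to 805, with 280 to 410 higher and 112 (without NPr 3) to 491 (without NPr 4) lower. Genes with all pregnant animals above numbered 88 to 174, and below 24 to 97, against 87 and 22 with all animals. Leaving out an animal can only keep or raise these counts. The 13 calls lost without some single animal were Tmem110 and Ube2l6 (without NPr 1), Slfn3 (NPr 1, 2 or 3), Ly6e (any NPr), C2 (any NPr, ExpPE 3, Pr 1 or Pr 2), Oasl2, Mx1, LOC100362710, Ddx60, Col6a6, Slfn13, Sned1 and Runx1 (8 to 12 animals each, controls among them).

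With the replicate number as a block 35 genes were called. The animals share only a number: 7 of 13 same-numbered pairs deviated together at a correlation over 0.1 (range -0.398 to 0.395), so no pairing was assumed.

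The array names hold a code that is read here as row and column, although no label says what it means. By that reading, NPr 4, ExpPE 1 and ExpPE 2 share the only row with both pregnant and NPr rats. Within it 325 genes were called (179 higher, 146 lower), 5 of them among the 32, and 3735 met the study threshold (1423 higher, 2312 lower). Sign was opposite there for Ucp1 (1.23), Aspg (0.56), Otop1 (1.20), Pnpla3 (1.27), Fabp3 (1.51), Adtrp (1.42), Ttc25 (0.62), Fam57b (1.41), Mmp2 (-0.085), Col6a1 (-0.080), Col6a2 (-0.16), Gpam (0.22), Elovl5 (0.14), Me1 (0.64), Sc5d (0.049), Hmgcs1 (0.12), Nsdhl (0.26), Slc2a4 (0.17), Tfrc (0.61), Aurka (-0.054), Sdhc (0.28) and Pcsk6 (0.34). These values compare 1 NPr rat with 2 pregnant rats, the NPr rat is assumed to vary like the others, and they are a description of 3 animals.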
